A study of Rattus norvegicus with 8 samples.

Results

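Uvrag encodes a subunit of the class III phosphatidylinositol 3-kinase (PI3K) complex, and it is described here together with Becn1, Pik3c3, Pik3r4, Atg14 and Rubcn, the genes of its Beclin 1 complex partners. Uvrag was picked by its lower RPKM (a read count corrected for gene length and library size) in inhibitor libraries, a difference given below as a description with no test, and the other 5 genes were chosen as its partners. All 6 members had a row among the 10692 rows of the deposited table. The libraries came from pancreatic islets of Sprague Dawley rats at postnatal day 10, whose dissociated cells were transfected in culture with oligonucleotides of locked nucleic acid (LNA), chemically stabilised antisense agents. In the inhibitor group (4 libraries) the cells received 3 LNA inhibitors at 20 pmol each, directed at the 5-prime fragments (tiRNA-5) of the tRNAs HisGTG, GluCTC and GluTTC. In the control group (4 libraries) they received 60 pmol of a scrambled control LNA. No label ties a library to its own animals, culture or day, so each p-value reflects the spread among these 8 libraries, which may be technical. The level of tiRNA-5 was not measured here, and therefore the inhibition itself was not checked.

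The class III PI3K, Vps34 (gene Pik3c3), is the lipid kinase that makes phosphatidylinositol 3-phosphate (PI3P), the lipid that recruits proteins to forming autophagosomes and to early endosomes. With the scaffold and regulatory subunit Vps15 (Pik3r4) and with Beclin 1 (Becn1), it forms a common core, to which either Atg14 or Uvrag is added. The Atg14 complex starts autophagosomes, whereas the Uvrag complex acts in endosome traffic and autophagosome maturation, and Rubicon (Rubcn) binds the Uvrag complex and lowers its activity. In beta cells of mice, loss of autophagy is known to impair islet structure and insulin secretion.

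Promoter windows are shown for Uvrag and Atg14, the alternative Beclin 1 partners that define the Uvrag and Atg14 complexes. Each runs from 250 bases before to 50 bases after the gene start in RefSeq, assembly GRCr8, which is not the authors' build (rn6). A window was found for 5 of the 6 members, with Becn1 the one not matched. The Uvrag window is at chr1:162854299-162854598, minus strand, and capitals mark the CCAAT box (letters CCAAT, searched on both strands).
Uvrag: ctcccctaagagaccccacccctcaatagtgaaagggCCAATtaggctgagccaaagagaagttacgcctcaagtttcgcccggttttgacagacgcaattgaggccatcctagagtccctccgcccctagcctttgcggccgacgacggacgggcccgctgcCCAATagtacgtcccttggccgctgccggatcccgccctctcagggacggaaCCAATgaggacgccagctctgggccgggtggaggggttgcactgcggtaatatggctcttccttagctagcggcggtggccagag
The Atg14 window is at chr15:23306766-23307065, minus strand, and capitals mark the E-box (letters CACGTG, its own reverse complement).
Atg14: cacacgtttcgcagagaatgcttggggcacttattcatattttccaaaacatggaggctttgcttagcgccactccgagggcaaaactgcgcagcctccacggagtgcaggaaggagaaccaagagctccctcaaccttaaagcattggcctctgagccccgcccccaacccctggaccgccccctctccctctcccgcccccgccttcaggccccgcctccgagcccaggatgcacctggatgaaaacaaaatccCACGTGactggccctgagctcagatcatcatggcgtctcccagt
The Uvrag window held 3 CCAAT boxes, starting at -213, -87 and -35 from the gene start, and 3.24% of 27457 windows of the same length held 3 or more. The motif was chosen after the sequence was seen, and 3 is the count of this window, so that share is a description only. The Atg14 window held 1 CCAAT box, at -106, and 37.7% of windows held at least 1. The E-box, which lies within the motif bound by the autophagy regulator TFEB, was found in the Atg14 window at position 7 after the start and in 6.65% of all windows. The letters CACGTG were not in the Uvrag window. GC boxes (GGGCGG, both strands) numbered 2 in the Uvrag and 3 in the Atg14 window, and 34.9% of windows held at least 1. Such matches describe letters, not bound sites.

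Each library held between 16035607 and 19049788 reads in the listed genes, recovered as whole numbers from the RPKM steps. The median gene had between 544 and 665 reads. The libraries carried islet identity, with 8 of 9 beta-cell markers listed and a summed level of 158948 to 254760 RPKM in inhibitor and 202482 to 255165 RPKM in control libraries. All 3 delta-cell markers were listed, with sums of 413 to 616 RPKM in inhibitor and 599 to 1061 RPKM in control libraries. The groups of that sum overlapped only through control 4. Of 11 mesenchymal and stellate markers 8 were listed, with sums of 2697 to 4382 RPKM in inhibitor and 2502 to 5283 RPKM in control libraries. Of 8 acinar markers 1 was listed, at 0.177 to 10.4 RPKM in inhibitor and 0.920 to 11.5 RPKM in control libraries. Endothelial markers (2 of 7 listed) summed to 2.47 to 6.51 RPKM in inhibitor and 4.44 to 9.10 RPKM in control libraries. The groups of this low sum overlapped only through inhibitor 3. Immune markers (2 of 8 listed, without Ptprc) summed to at most 7.46 RPKM in inhibitor and 7.27 RPKM in control libraries, and 0 of 5 Schwann and neural markers were listed. Inhibitor 4 stood apart by its Y-linked genes (3 of 5 listed), whose sum was 1.80 RPKM, against 11.01 to 28.7 RPKM in the other libraries. Its beta-cell and delta-cell sums were also the lowest of all 8 libraries, at 158948 and 413 RPKM. Its sums of alpha-cell markers (9773 RPKM) and ductal markers (130 RPKM, 2 of 5 listed) were the highest. In such bulk libraries, fewer cells of a type and less RNA per cell cannot be told apart.

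Uvrag mRNA was lower in every inhibitor library than in every control library (ratio of the means 0.763). Inhibitor libraries 1 to 4 had 14.8, 14.5, 14.6 and 16.0 RPKM, against 21.2, 19.8, 18.9 and 18.7 RPKM in control libraries 1 to 4. Inhibitor 4 was the highest of its group, and it lay below control 4, the lowest of the controls. The means were 15.0 ± 0.704 RPKM in inhibitor and 19.6 ± 1.13 RPKM in control libraries (SD, n = 4 each), a difference of -23.7%. On the log2(RPKM + 1) scale, on which all differences below are given as inhibitor minus control, it was -0.37 ± 0.063 (SE). This difference is the one that chose the gene. The genes listed beside Uvrag when all are ordered by p were Gnpda2 (ratio 1.26), Slc7a2 (1.39) and Cxadr (1.28), named as a description only. By size alone, 127 tested genes had a lower log2 fold change, of which 17 also had every inhibitor library below every control library. That separation in the lower direction held for 1.61% of all tested genes. The authors' deposited table gives Uvrag a log2 fold change of -0.41 and an adjusted p of 0.00629, computed from the libraries that chose it, and Uvrag is 1 of its 6 genes (0.0561% of rows) under 0.05.

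The depth behind Uvrag was moderate, at 1122 to 1739 reads per library. Counting alone gives an error of 2.83% of the level in inhibitor and 2.53% in control libraries. The SD between libraries was 4.70% of the mean in inhibitor and 5.75% in control libraries, so each exceeded the counting error. Such errors cover counting only, since duplicate reads cannot be told from separate molecules. In the reference gene table, a pseudogene and a long non-coding RNA without rows of their own overlap Uvrag. The annotation and the use of strand in counting are not given in the sources used here. Any reads of theirs counted to Uvrag therefore cannot be told apart, and whether there were any was not checked. In 3 of the 4 control libraries the delta-cell sum lay above that of every inhibitor library, and its part in the Uvrag level was not tested. With the level of the mesenchymal markers as a covariate the log2 fold change of Uvrag was -0.37, and without both control 1 and inhibitor 4 it was -0.36. Neither value is a check of the gene, which was picked for this fall. Leaving out libraries cannot reverse groups that do not overlap. The mesenchymal sums overlapped between the groups, and the delta-cell sum was not used as a covariate.

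**Figure D1:**
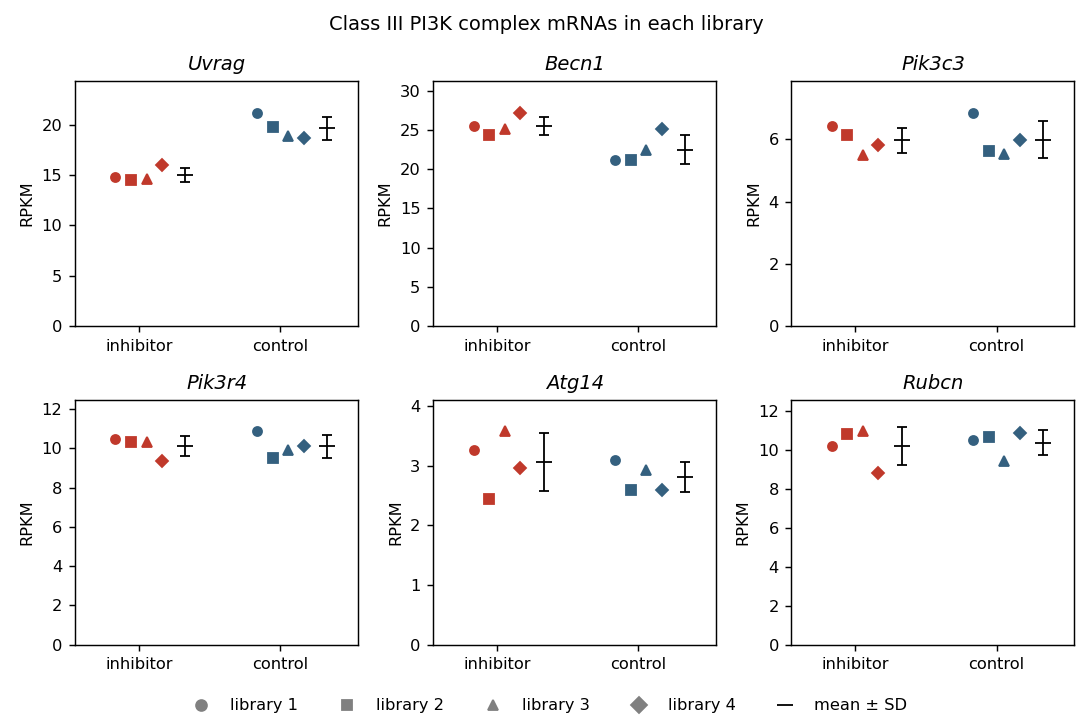
RPKM of the 6 members in each library, inhibitor on the left and control on the right of each panel, with symbols for the library numbers and bars for mean ± SD (n = 4). Uvrag lies between 14.5 and 16.0 RPKM in inhibitor and between 18.7 and 21.2 RPKM in control libraries, and the groups of the other 5 genes overlap.

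None of the 5 partner genes passed the test. At an adjusted p under 0.05 by limma, 0% of the 10688 tested genes were higher and 0% lower in inhibitor libraries, and the smallest adjusted p was 0.541. At an unadjusted p under 0.05, 960 genes were found by limma and 1138 by limma-voom on the recovered reads. Of the partners, 1 was higher at that level, Becn1, where 5.52% of all tested genes were higher. None was lower, where 3.46% of all tested genes were.

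Becn1, the core subunit that binds Uvrag or Atg14, averaged higher in inhibitor libraries without passing the test. Inhibitor libraries 1 to 4 had 25.4, 24.3, 25.1 and 27.1 RPKM, against 21.2, 21.2, 22.4 and 25.1 RPKM in control libraries 1 to 4. The groups overlapped because control 4 lay above inhibitor 2. The means were 25.5 ± 1.20 RPKM in inhibitor and 22.4 ± 1.84 RPKM in control libraries (SD, n = 4 each), a ratio of 1.14. The log2 fold change was 0.18 ± 0.069 (SE), with a 95% interval from 0.022 to 0.33 before any adjustment. By limma the unadjusted p was 0.0291 and the adjusted p 0.541, which put Becn1 at place 555 of the tested genes by p. The authors' deposited table gives a log2 fold change of 0.16 and an adjusted p of 0.529. The difference was largest without control 4 (0.23) and smallest without both control 1 and inhibitor 4 (0.12). The gene Cntd1, which overlaps Becn1 in the reference table, had no row.

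The catalytic subunit and its scaffold showed almost no difference of the means. Pik3c3 had 6.42, 6.14, 5.49 and 5.83 RPKM in inhibitor libraries 1 to 4, against 6.85, 5.63, 5.53 and 5.98 RPKM in control libraries 1 to 4. Its means were 5.97 ± 0.399 RPKM in inhibitor and 5.998 ± 0.601 RPKM in control libraries (SD, n = 4 each), and control 1 was the highest of all 8. The log2 fold change of Pik3c3 was -0.0034 ± 0.082 (SE; limma adjusted p = 0.992), with a 95% interval from -0.19 to 0.18. Changes up to those bounds lie within the error of this comparison. Pik3r4 had 10.5, 10.3, 10.3 and 9.33 RPKM in inhibitor libraries 1 to 4, against 10.9, 9.51, 9.92 and 10.1 RPKM in control libraries 1 to 4. The inhibitor group lay close together except for inhibitor 4. Its means were 10.1 ± 0.527 RPKM in inhibitor and 10.1 ± 0.567 RPKM in control libraries (SD, n = 4 each). The log2 fold change of Pik3r4 was 0.0026 ± 0.067 (SE; limma adjusted p = 0.993), with a 95% interval from -0.15 to 0.15. The sign of both differences changed under several alternatives, so neither has a direction. Rpl29 overlaps Pik3r4 in the reference table, so reads of that abundant ribosomal protein gene (73.6 RPKM in inhibitor and 91.5 RPKM in control libraries) could reach Pik3r4.

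Atg14, the subunit that takes the place of Uvrag in the autophagosome-forming complex, had the lowest level of the 6. It had 3.26, 2.44, 3.57 and 2.96 RPKM in inhibitor libraries 1 to 4, against 3.10, 2.60, 2.93 and 2.59 RPKM in control libraries 1 to 4. The inhibitor libraries held both the highest and the lowest value, so the groups overlapped fully. The means were 3.06 ± 0.481 RPKM in inhibitor and 2.81 ± 0.252 RPKM in control libraries (SD, n = 4 each). The log2 fold change was 0.088 ± 0.10 (SE; limma adjusted p = 0.747), with a 95% interval from -0.14 to 0.32. Atg14 rested on 201 to 299 reads per library, a counting error of 6.18% in inhibitor and 6.57% in control libraries. The SD between libraries was 15.7% of the mean in inhibitor and 8.97% in control libraries. Without inhibitor 2 the log2 fold change was 0.16, and without inhibitor 3 it was 0.028.

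Rubcn, the inhibitor of the Uvrag complex, did not differ detectably. Inhibitor libraries 1 to 4 had 10.2, 10.9, 10.97 and 8.84 RPKM, against 10.5, 10.7, 9.44 and 10.9 RPKM in control libraries 1 to 4. Inhibitor 4 was the lowest and inhibitor 3 the highest of all 8. The means were 10.2 ± 0.978 RPKM in inhibitor and 10.4 ± 0.647 RPKM in control libraries (SD, n = 4 each). The log2 fold change was -0.022 ± 0.081 (SE; limma adjusted p = 0.921), with a 95% interval from -0.20 to 0.16. Without inhibitor 4 it was 0.040.

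The order of the levels was the same in both groups. Per length, Becn1 was highest, followed by Uvrag, Rubcn, Pik3r4, Pik3c3 and Atg14. Rubcn and Pik3r4, neighbours in this order, overlapped in both groups. Becn1 and Uvrag were well apart in inhibitor libraries but were both at 21.2 RPKM in control 1. Among all rows ranked by mean RPKM over the 8 libraries, Becn1 stood at percentile 77.2, Uvrag at 68.0, Rubcn at 51.4, Pik3r4 at 50.6, Pik3c3 at 32.9 and Atg14 at 14.6. Atg14, which defines one complex, was thus among the less abundant listed mRNAs, and Uvrag, which defines the other, was above the middle.

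Ratios within a library do not depend on how the library was scaled. The ratio of Uvrag to Becn1 was 0.584, 0.595, 0.582 and 0.590 in inhibitor libraries 1 to 4, against 1.00, 0.934, 0.844 and 0.744 in control libraries 1 to 4. The inhibitor libraries were almost level and all lay below control 4. The mean was 0.588 ± 0.00594 in inhibitor and 0.880 ± 0.111 in control libraries (SD, n = 4 each). The SD of 1.01% of the mean in inhibitor libraries was smaller than the 3.503% that counting reads of both genes would give, whereas in control libraries it was 12.6% against 3.39%. The closeness of the inhibitor ratios is thus finer than these read numbers can resolve. The ratio of Uvrag to Atg14 was 4.99 ± 0.828 in inhibitor and 7.02 ± 0.495 in control libraries (SD, n = 4 each), with ranges of 4.08 to 5.92 and 6.45 to 7.61 that did not overlap. Uvrag to Pik3c3 was 2.52 ± 0.216 in inhibitor and 3.28 ± 0.213 in control libraries, and Uvrag to Pik3r4 was 1.49 ± 0.153 in inhibitor and 1.95 ± 0.0992 in control libraries (SD, n = 4 each), both without overlap. Uvrag to Rubcn ranged from 1.33 to 1.81 in inhibitor and from 1.72 to 2.01 in control libraries and overlapped, since inhibitor 4 lay above control 4. These 5 ratios hold the difference of Uvrag that chose the gene, and no test is given for them.

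The 3 ratios without Uvrag were tested, and none passed. Atg14 to Becn1 was 0.120 ± 0.0189 in inhibitor and 0.126 ± 0.0179 in control libraries (SD, n = 4 each), with an exact two-sided permutation p of 0.686 (adjusted over 3 ratios, 0.914). Rubcn to Becn1 was 0.403, 0.447, 0.438 and 0.326 in inhibitor libraries 1 to 4, against 0.497, 0.505, 0.421 and 0.434 in control libraries 1 to 4. Its means were 0.403 ± 0.0550 in inhibitor and 0.464 ± 0.0429 in control libraries (SD, n = 4 each), and the groups overlapped. The log2 ratio of Rubcn to Becn1 differed by -0.21 (exact two-sided permutation p = 0.171, adjusted 0.514), and by -0.11 without inhibitor 4. Pik3r4 to Pik3c3 was 1.70 ± 0.126 in inhibitor and 1.69 ± 0.0850 in control libraries (SD, n = 4 each), with an exact two-sided permutation p of 0.914 (adjusted, 0.914). The smallest p that this design allows is 0.0286.

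**Figure D2:**
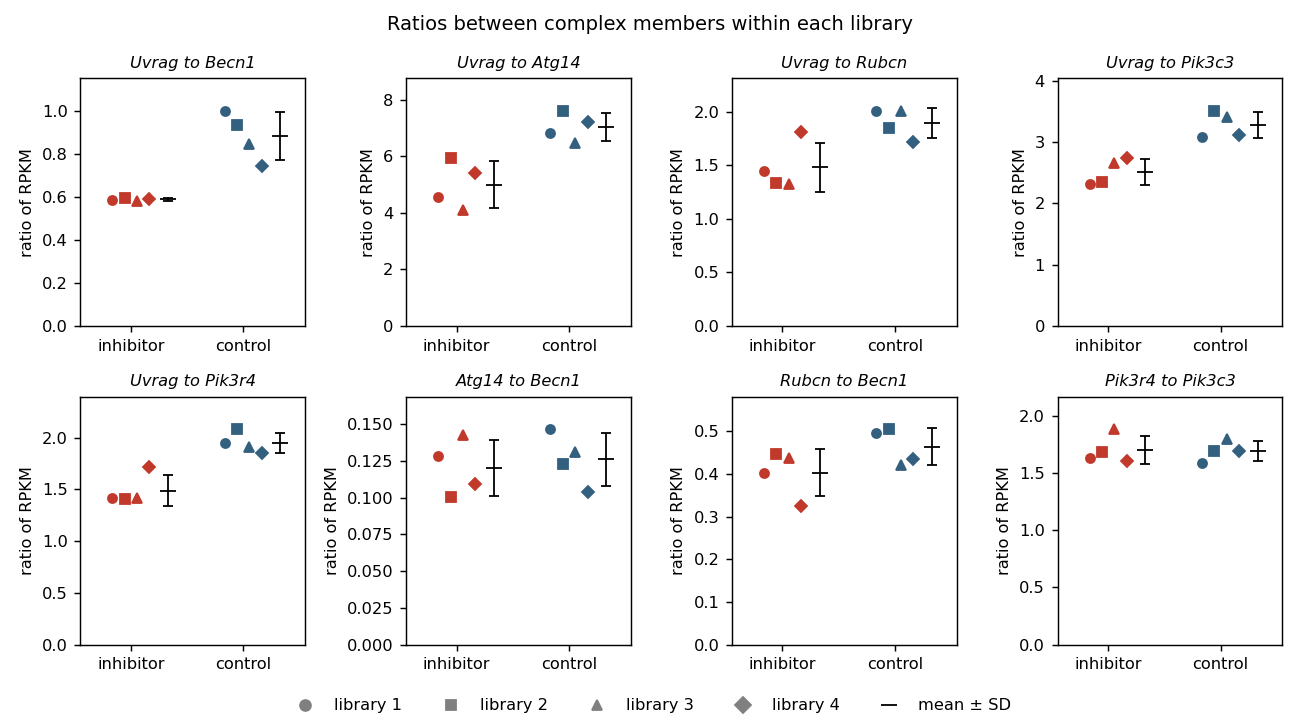
Ratios of RPKM between members within each library, inhibitor on the left and control on the right, with symbols for the library numbers and bars for mean ± SD (n = 4). Uvrag to Becn1 lies between 0.582 and 0.595 in inhibitor and between 0.744 and 1.00 in control libraries, and the 3 ratios without Uvrag overlap between the groups.

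The genes around Uvrag on its chromosome had no common direction, and none passed the test. The nearest measured genes on the side of lower coordinates were Thap12 (7 genes away in the reference table) and Emsy (9), and on the other side Map6 (7) and Serpinh1 (9). Thap12, a zinc finger protein, was at 12.4 ± 1.05 RPKM in inhibitor and 10.7 ± 1.76 RPKM in control libraries, and Emsy, a chromatin protein, at 10.8 ± 0.342 RPKM in inhibitor and 10.1 ± 0.363 RPKM in control libraries (SD, n = 4 each). Every inhibitor library of Emsy lay above every control library, as did 3.7% of all tested genes. Serpinh1, a collagen chaperone, averaged lower, at a log2 fold change of -0.24 ± 0.25 (SE), and Map6, a microtubule-associated protein, was at 0.073 ± 0.16 (SE), both with overlapping groups. By limma the adjusted p of the 4 genes was between 0.574 and 0.859. The nearest measured genes of Becn1 (Coa3 and Psme3), of Pik3c3 (Tpgs2 and Syt4), of Pik3r4 (Rpl29 and Col6a6) and of Atg14 (Fbxo34 and Ktn1) lay from 1 to 29 genes away in the order of that table and overlapped between the groups, with log2 fold changes from -0.30 (Rpl29) to 0.25 (Col6a6). Of the nearest measured genes, the smallest p were those of the Rubcn pair, Fyttd1 (1 gene away) and Tnk2 (7 genes away). Fyttd1, an mRNA export adaptor, was at 34.1 ± 1.37 RPKM in inhibitor and 28.5 ± 1.90 RPKM in control libraries, and Tnk2, a tyrosine kinase, at 6.22 ± 0.374 RPKM in inhibitor and 7.48 ± 0.791 RPKM in control libraries (SD, n = 4 each). The log2 fold changes were 0.25 ± 0.064 and -0.23 ± 0.083 (SE) for Fyttd1 and Tnk2 in turn, and neither passed (limma adjusted p = 0.541 for both).

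**Figure D3:**
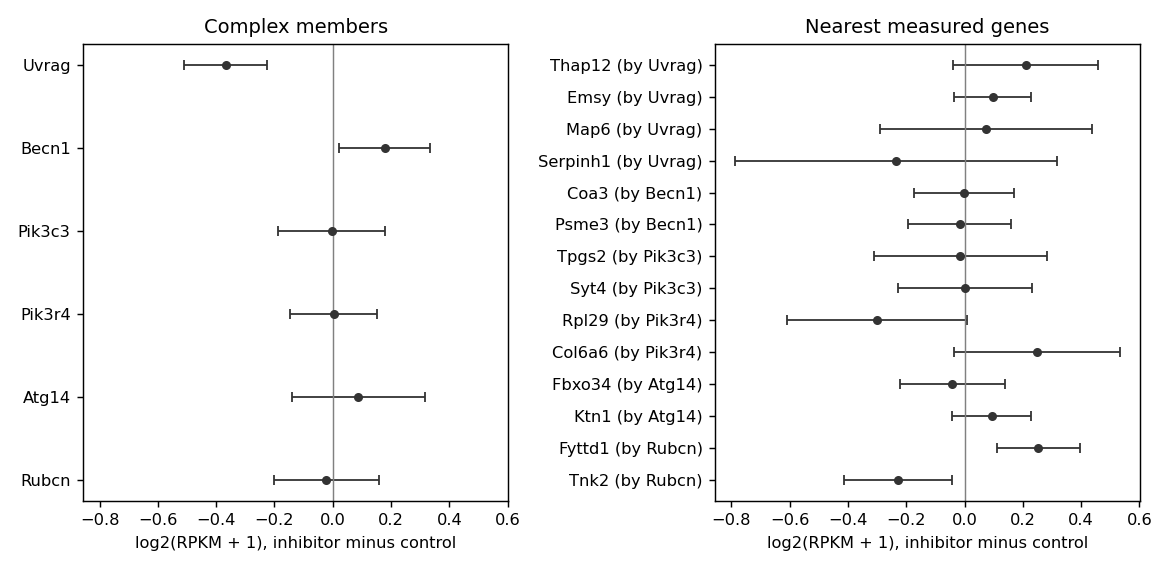
Difference of log2(RPKM + 1), inhibitor minus control, with 95% limma intervals for the members (left) and for the nearest measured genes to each member, 1 to 29 genes away in the reference table (right). Uvrag is at -0.37 (its interval is a description, since the difference chose the gene) and Becn1 at 0.18, and the 4 genes by Uvrag have intervals that reach over 0.

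The rest of the autophagy and PI3P machinery was described by 11 lists. With each gene counted once, they named 129 genes, of which 109 were tested, and 0 passed at an adjusted p under 0.05. At an unadjusted p under 0.05, 6 genes (5.505%) were higher and 4 (3.67%) lower in inhibitor libraries, shares close to those over all genes given above. The median log2 fold change over the 109 genes was 0.031, beside 0.015 over all tested genes. Of the 109 genes, 5 lay wholly above and 1 wholly below the control libraries, as 3.7% and 1.61% of all tested genes did.

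Upstream of the complex, the kinases that start autophagy gave both signs. The list of the ULK1 complex and its upstream kinases had 9 of 10 genes measured, with 4 positive and 5 negative log2 fold changes and a median of -0.023. Mtor, the nutrient-sensing kinase that restrains autophagy, was at 6.94 ± 0.347 RPKM in inhibitor and 7.74 ± 0.666 RPKM in control libraries (SD, n = 4 each; limma adjusted p = 0.580). Prkaa1, a catalytic subunit of the energy sensor AMPK, was at 13.3 ± 0.847 RPKM in inhibitor and 12.3 ± 0.530 RPKM in control libraries (SD, n = 4 each; limma adjusted p = 0.598). Of the Beclin 1 regulators 10 of 16 were measured, with none at an unadjusted p under 0.05 and a median of 0.047. Nrbf2, a subunit that joins the Atg14 complex, was at 3.46 ± 0.424 RPKM in inhibitor and 2.97 ± 0.243 RPKM in control libraries, and Hmgb1, a nuclear protein that can bind Beclin 1, at 10.8 ± 1.35 RPKM in inhibitor and 9.50 ± 0.966 RPKM in control libraries (SD, n = 4 each). The MiT/TFE and FOXO list had 8 of 8 measured, with 3 positive, 5 negative and a median of -0.039. Its transcription factors (Tfeb, Tfe3, Mitf, Foxo1 and Foxo3) were the 5 negative ones, from -0.11 to -0.036. The 3 positive ones, Rragc, Rragd and Flcn, are not transcription factors. None of the 8 had an unadjusted p under 0.05. Rragd, a GTPase of lysosomal nutrient sensing, differed by 0.19 ± 0.11 on the log2 scale (SE), and Flcn, whose product folliculin acts on that GTPase, by 0.075 ± 0.082.

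Downstream at the autophagosome, single genes lay under an unadjusted p of 0.05 in either direction. Of all tested genes 5.52% were higher and 3.46% lower at that level, and 3.7% had every inhibitor library above every control library. The list named PI3P effectors of the phagophore, which also holds the ATG2 and ATG9 genes, had 8 of 9 measured. Of these, 1, Atg9a, was lower at an unadjusted p under 0.05, and none of Wipi1, Wipi2, Wdr45, Wdr45b and Zfyve1 was. Atg9a, a lipid scramblase of autophagosome formation, was at 17.8 ± 1.40 RPKM in inhibitor and 20.0 ± 0.816 RPKM in control libraries (SD, n = 4 each), a log2 fold change of -0.16 ± 0.068 (SE; limma adjusted p = 0.541). Atg2a, a lipid transfer protein that works with it, was at 7.79 ± 1.01 RPKM in inhibitor and 8.69 ± 1.11 RPKM in control libraries (SD, n = 4 each). The ATG8 conjugation list had 13 of 16 measured, with a median of -0.0063. Its member Atg4c, a protease of ATG8 proteins, had 10.2, 9.09, 9.85 and 9.26 RPKM in inhibitor libraries 1 to 4, against 7.66, 8.33, 7.63 and 8.69 RPKM in control libraries 1 to 4. The groups of Atg4c did not overlap, and its log2 fold change was 0.22 ± 0.069 (SE; limma adjusted p = 0.541). Atg4d, of the same protease family, was at 9.39 ± 0.997 RPKM in inhibitor and 10.3 ± 0.499 RPKM in control libraries (SD, n = 4 each). Of the autophagy receptors 9 of 12 were measured, 8 with a positive log2 fold change and a median of 0.070, where 45.7% of all tested genes had a negative one. Fundc1, a mitophagy receptor, had 5.88, 5.90, 5.48 and 6.14 RPKM in inhibitor libraries 1 to 4, against 4.78, 4.53, 4.98 and 5.44 RPKM in control libraries 1 to 4. Its groups did not overlap, although inhibitor 3 and control 4 nearly met (limma adjusted p = 0.541). Optn, a receptor for ubiquitin-marked cargo, was at 20.1 ± 1.96 RPKM in inhibitor and 18.4 ± 0.926 RPKM in control libraries (SD, n = 4 each).

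At endosomes and lysosomes, where the Uvrag complex acts, the lists also held both directions. HOPS, CORVET and endosomal Rab genes had 11 of 12 measured and a median of 0.046. Vps41, a subunit of the HOPS tethering complex, was at 24.8 ± 1.12 RPKM in inhibitor and 22.2 ± 1.49 RPKM in control libraries (SD, n = 4 each), without overlap, a log2 fold change of 0.16 ± 0.065 (SE; limma adjusted p = 0.541). Vps18, a core subunit of HOPS and CORVET, was at 6.46 ± 0.384 RPKM in inhibitor and 6.86 ± 0.445 RPKM in control libraries (SD, n = 4 each). Of the endosomal PI3P effectors and PI3P turnover genes 19 of 20 were measured, with a median of 0.045. At an unadjusted p under 0.05, 2 of them were higher (Stam2 and Mtmr9) and 2 lower (Vac14 and Hgs), of which Mtmr9 (log2 fold change 0.24 ± 0.10, SE) and Hgs (-0.16 ± 0.067, SE) are named because of their values, where 5.52% of all tested genes were higher and 3.46% lower. Of the 19 genes, 1 lay wholly above and 1 wholly below the control libraries, as 3.7% and 1.61% of all tested genes did. Stam2, which binds ubiquitin on endosomes together with the product of Hgs, was at 26.0 ± 1.36 RPKM in inhibitor and 23.0 ± 1.66 RPKM in control libraries (SD, n = 4 each), and the groups did not overlap. Vac14, the scaffold of the kinase that converts PI3P, was at 11.6 ± 0.457 RPKM in inhibitor and 13.0 ± 0.563 RPKM in control libraries (SD, n = 4 each), and its groups did not overlap either. The limma adjusted p was 0.541 for both. The 8 fusion genes were all measured, 7 with a positive log2 fold change and a median of 0.076. Of all tested genes 45.7% had a negative one, and their median was 0.015. None of the 8 had an unadjusted p under 0.05. Of these, Vamp8, a SNARE protein of the lysosome, was at 274.9 ± 32.9 RPKM in inhibitor and 246 ± 13.7 RPKM in control libraries, and Epg5, a tether, at 4.75 ± 0.231 RPKM in inhibitor and 4.32 ± 0.332 RPKM in control libraries (SD, n = 4 each).

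The other PI3K classes and further binding partners of Uvrag also held no gene past the test. Of the class I and class II PI3K genes 7 of 10 were measured, with a median of 0.00099. At an unadjusted p under 0.05, 1 was higher (Pik3r1) and 1 lower (Pik3r2), where 5.52% and 3.46% of all tested genes were. Pik3r2 and Pik3r1, regulatory subunits of class I, had opposite signs, with log2 fold changes of -0.17 ± 0.071 and 0.18 ± 0.082 (SE; limma adjusted p = 0.543 and 0.550). Pik3r2 was at 14.3 ± 1.02 RPKM in inhibitor and 16.2 ± 0.954 RPKM in control libraries, and Pik3r1 at 10.1 ± 0.608 RPKM in inhibitor and 8.84 ± 0.946 RPKM in control libraries (SD, n = 4 each). Of 12 other binding partners of Uvrag 11 were measured, with 7 positive, 4 negative and a median of 0.066. Xrcc6, a DNA end-binding protein of double-strand break repair, was at 17.4 ± 1.81 RPKM in inhibitor and 14.7 ± 2.12 RPKM in control libraries (SD, n = 4 each). Rint1, a tether of the endoplasmic reticulum that binds Uvrag, had 15.7, 14.9, 15.0 and 14.3 RPKM in inhibitor libraries 1 to 4, against 14.1, 13.7, 14.2 and 12.5 RPKM in control libraries 1 to 4. The groups of Rint1 did not overlap, and its log2 fold change was 0.13 ± 0.063 (SE; limma adjusted p = 0.563). Every inhibitor library lay above every control library in 3.7% of all tested genes.

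**Figure D4:**
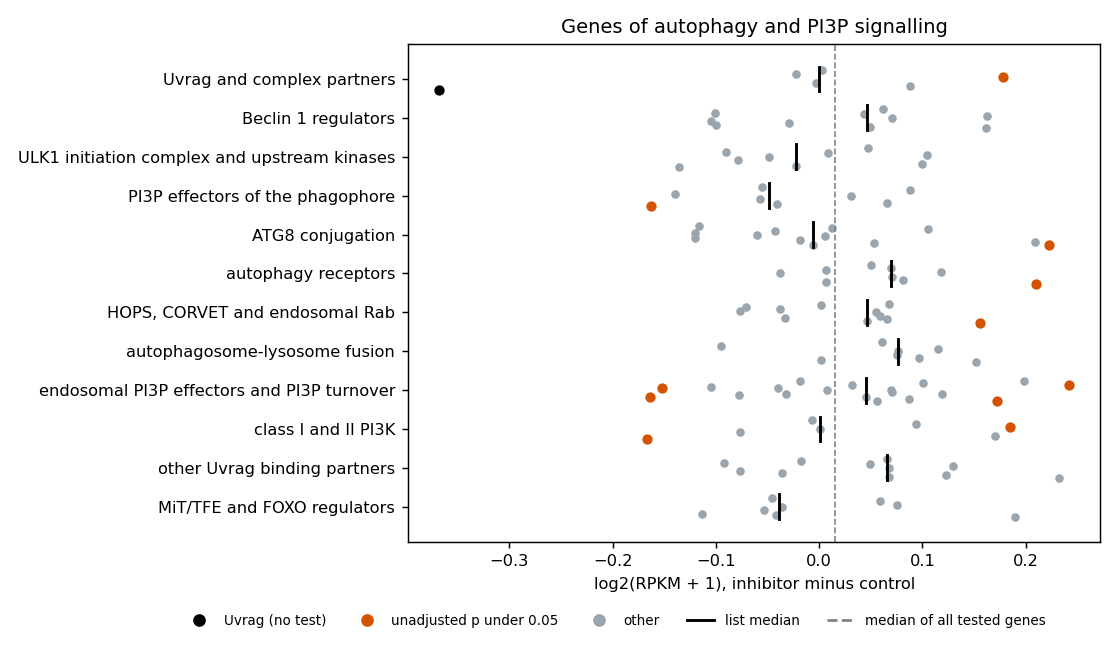
Difference of log2(RPKM + 1), inhibitor minus control, of each measured gene by list, with orange points for an unadjusted limma p under 0.05, a black point for Uvrag, which has no test, black bars for list medians and a dashed line for the median of all tested genes (0.015). Uvrag, which was picked for its fall, lies at -0.37, below every other gene drawn, and the next lowest is at -0.17.

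The genes whose pattern over the 8 libraries lay closest to that of Uvrag were Lrrc75a, Agap1, Pafah1b3, Ap2a2 and Rpl28. Closeness was the mean absolute difference over the 8 libraries between log2(RPKM + 1) values, each gene being centred on its own mean. It was 0.057 for Lrrc75a, 0.061 for Agap1, 0.064 for Pafah1b3, 0.065 for Ap2a2 and 0.067 for Rpl28, and the median over all genes was 0.21. All 5 had every inhibitor library below every control library, which such a choice favours because Uvrag has that pattern. Lrrc75a, a leucine-rich repeat gene, had 3.43, 3.17, 3.70 and 3.70 RPKM in inhibitor libraries 1 to 4, against 5.14, 5.45, 4.41 and 4.46 RPKM in control libraries 1 to 4. Ap2a2, a subunit of the clathrin adaptor AP-2, was at 44.7 ± 0.693 RPKM in inhibitor and 53.0 ± 2.19 RPKM in control libraries, and Pafah1b3, a subunit of a platelet-activating factor acetylhydrolase, at 7.44 ± 0.569 RPKM in inhibitor and 9.20 ± 0.640 RPKM in control libraries (SD, n = 4 each). The partners were at 0.18 for Pik3c3 (place 3214 of the tested genes by closeness), 0.19 for Pik3r4 (3645), 0.20 for Rubcn (4235), 0.23 for Atg14 (6399) and 0.27 for Becn1 (9033). On this measure Pik3c3, Pik3r4 and Rubcn lay under the median over all genes, and Atg14 and Becn1 above it. A gene that varies little also scores low, so a low value need not mean a shared pattern. The log2 fold changes of Pik3c3, Pik3r4 and Rubcn were -0.0034, 0.0026 and -0.022, against -0.37 for Uvrag.

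**Figure D5:**
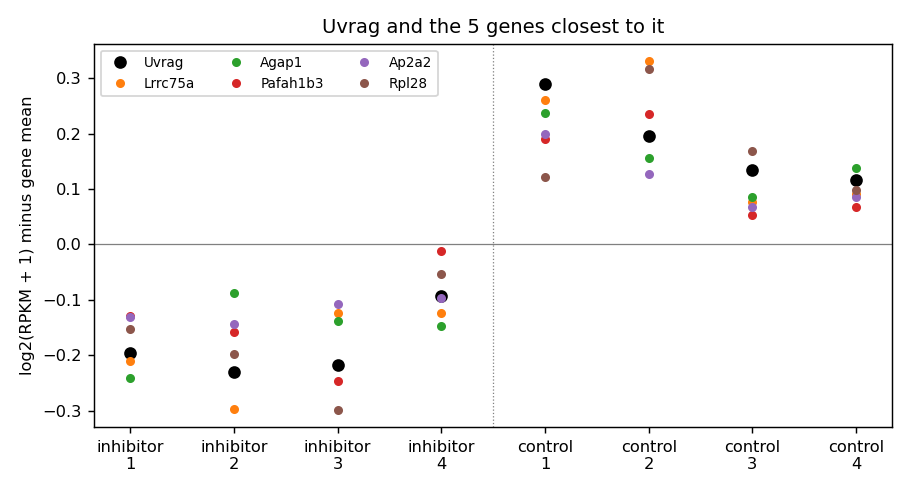
log2(RPKM + 1) minus the mean of each gene in the 8 libraries, for Uvrag (black) and the 5 closest genes. All points of the 4 inhibitor libraries lie below 0 and all points of the 4 control libraries above it; Uvrag is nearest to 0 in inhibitor 4 (-0.093).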

How the data were processed

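RNA of 4 inhibitor and 4 control libraries was compared. The authors deposited RPKM values for each library, per the file headers. Build rn6 and the tools HISAT2 2.1.0, HTSeq, RSEM 1.3.0 and STAR 2.5.3a stand in the submitters' processing notes. Which tool gave the RPKM, the annotation and the strand setting are not given in the sources used here. Beside the RPKM, the table holds the authors' deposited log2 fold change, ratio (fold), p-value and adjusted p-value, by a test not given there. The mean RPKM of every row was 1 or more in each group, and genes below that were not analysed here.

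log2(RPKM + 1) was fitted with limma 3.58.1 (R 4.3.3; group only, intensity trend, two-sided, Benjamini-Hochberg over all genes) for 10688 genes (RPKM of 1 or more in 4 or more libraries). This scale understates changes of low genes. Whole reads were recovered from the RPKM steps for 10692 of 10692 rows (tolerance 0.0001) and served for depth and limma-voom. Ratios were tested by exact permutation (scipy 1.17.1). The fit was tested on simulated data. The reference gene table (GRCr8) held 9816 row names as current and 330 as older symbols and lacked 546, and that assembly served for names, neighbours and promoter windows only. The first of 2 nearly identical Uvrag windows was used. Motifs also searched on both strands, without a match in either printed window, were GTAAACA (in 3.76% of all windows), TGACGTCA (1.91%), CCGGAAG (9.22%) and TATAAA (14.3%). Motifs were chosen after the sequences were seen.

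Members and lists were chosen with earlier results of these data known. Named were all members, the 2 genes of each list with the smallest p, the 5 genes closest to Uvrag, the nearest measured genes on each side (2 for Uvrag, 1 for the others), with the values of those whose p was smallest, and the genes next to Uvrag by p.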

Additional observations from a re-analysis of the deposited data

Results flagged for a closer look

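In 28 groups of 4 values (6 members and 8 ratios in both groups), 2 held a library far from the other 3 by Dixon's ratio, which chance alone does for about 1 group in 20. Pik3r4 in inhibitor 4 was at 9.335 RPKM, with the other inhibitor libraries at 10.3 to 10.5 RPKM. The ratio of Uvrag to Pik3r4 in inhibitor 4 was 1.714, with the other inhibitor libraries at 1.40 to 1.42. This ratio has the flagged Pik3r4 value as its denominator, so the 2 flags are not independent. Both values come from the library with the lowest sums of Y-linked, beta-cell and delta-cell genes and the highest sums of alpha-cell and ductal genes. The part of these in both values was not tested.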

How the results depend on the processing

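No alternative called a gene: 0 were higher and 0 lower at an adjusted p under 0.05 under each of 18 alternatives. The log2 fold change of Uvrag lay between -0.40 and -0.33 in all 18. Its sign is no check of the gene, which was picked for this fall. As its groups do not overlap, leaving out libraries cannot reverse it, and the filters leave its estimate as it was. Becn1 (0.12 to 0.23, limma adjusted p 0.146 to 0.8998) and Atg14 (0.028 to 0.16) kept their direction in all 18. Genes at an unadjusted p under 0.05 numbered 960, but 2814 with library weights, 1699 without both control 1 and inhibitor 4, 1511 with the mesenchymal covariate, 494 without control 2 and 422 without inhibitor 1. The other members lay near 0 and changed sign. Pik3c3 was 0.024 with limma-voom, 0.074 with library weights and 0.063 without both control 1 and inhibitor 4, and lay between -0.035 and 0.053 with 1 library left out. Pik3r4 was -0.020 with median-of-ratios scaling and -0.0090 with the mesenchymal covariate, and between -0.023 and 0.037 with 1 library left out. Rubcn was 0.046 without both libraries and between -0.063 and 0.040 with 1 left out. The log2 ratio of Atg14 to Becn1 was 0.048 without both libraries and between -0.16 and 0.011 with 1 left out; Pik3r4 to Pik3c3 lay between -0.043 and 0.036, and Rubcn to Becn1 between -0.26 and -0.11, and at -0.076 without both libraries, against -0.21 with all 8. The cause was not tested. Deviations of same-numbered libraries correlated over genes at 0.14, -0.27, 0.32 and 0.45 for numbers 1 to 4, and those of differently numbered libraries at -0.45 to 0.42. Inhibitor 1, 3 and 4 correlated best with the control of their own number and inhibitor 2 with control 1. Seen from the controls, only control 3 and control 4 correlated best with their own number. Control 1 did so with inhibitor 2 (0.42) and control 2 with inhibitor 4 (0.35). This is at most a hint from the data rather than the design, so the numbers were not taken as pairs. With the replicate block, 0 genes were called (1109 at an unadjusted p under 0.05). As each number occurs once in each group, the block cannot move an estimate. Uvrag thus stayed at -0.37, and the log2 ratios at -0.070 for Atg14 to Becn1, -0.21 for Rubcn to Becn1 and 0.0065 for Pik3r4 to Pik3c3 (exact sign-flip p = 0.625, 0.25 and 1, two-sided). With 4 library numbers the sign-flip test cannot reach 0.05. Of the members, depth limits Atg14 most, with 201 to 299 reads.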
